A study of Mus musculus with 9 samples.

Results

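A set of fibroblast and non-collagen matrix genes, namely Dcn, Lum, Pdgfra, Postn, Fbln1, Sparc, Fap, Mfap5, Fn1 and Lox, were followed in neutrophil preparations from the skin and lesions of mice undergoing chemical skin carcinogenesis. They were found by the gene name that the array's annotation gives a probe, which yielded 14 probes for all 10 genes among 55681 non-control probes with 34797 names. Fbln1 had 3 probes, Sparc and Lox had 2 each and the other 7 genes had 1. All probes are shown and none was dropped.

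Gr-1bright neutrophils had been sorted from papilloma skin (2 arrays), papilloma (3 arrays), tumor skin (2 arrays) and tumor (2 arrays), where papilloma skin and tumor skin are the skin next to the respective lesion. The mice were of the FVB/N strain, and all groups, the skin groups included, came from animals that had received the carcinogen DMBA at 6 and at 13 weeks of age and the tumor promoter PMA 2 times a week from week 1 until week 18 to 20. Tissues were digested with enzymes, lesions with collagenase IV, dispase II and DNase I and skin with collagenase IV alone, and cells were sorted by FACS to a purity stated as above 98%. Each array held RNA pooled from several mice, no array came from mice without DMBA and PMA, and the p-values below measure the spread between arrays. Levels are the log2 values that the authors deposited for each probe and array, on which a difference of 1 is a 2-fold difference within 1 probe. Differences in level between probes also hold how strongly each probe binds, so mean levels below serve to choose which genes are named.

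Fibroblasts build the connective tissue of the dermis and of tumor stroma. Besides collagens they secrete small leucine-rich proteoglycans that sit on collagen fibrils, such as decorin (Dcn) and lumican (Lum), glycoproteins that cells adhere to, such as fibronectin (Fn1), and matricellular proteins that modulate contacts between cells and matrix, such as periostin (Postn) and osteonectin (Sparc). Lysyl oxidase (Lox) cross-links collagen and elastin, Mfap5 belongs to microfibrils, fibulin-1 (Fbln1) to elastic fibres and basement membranes, Pdgfra is the PDGF receptor of many fibroblasts, and Fap is a serine protease on the surface of activated fibroblasts. Several of them are not exclusive to fibroblasts, since endothelial cells and pericytes also make Sparc and macrophages make Fn1.

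What the array reads of these transcripts is shown for 2 genes whose 60-base probe runs through the end of a reading frame, Dcn because it was the member called lower in the value table (a direction not kept in the scanner files) and Fbln1 because its probes lie apart from each other. The stop codon, the first one in the frame that is open from the probe's first base, is in capitals. The Dcn probe is annotated at chr10:96980233-96980292 and the Fbln1 probe at chr15:85115550-85115609, both on the plus strand of mm9.
Dcn, A_51_P334104: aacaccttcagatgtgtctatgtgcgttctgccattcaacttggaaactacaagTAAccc
Fbln1, A_55_P2088601: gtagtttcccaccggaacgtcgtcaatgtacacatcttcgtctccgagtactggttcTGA
The other Fbln1 probes lie at chr15:85081927-85081986 (A_65_P08768) and chr15:85115998-85116057 (A_52_P588483), of which the former is far upstream of the frame end shown. The Sparc probes are on the minus strand at chr11:55208003-55208061 (A_55_P2046807) and chr11:55208939-55208998 (A_55_P2046812).

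Postn and Sparc were the members called higher in papilloma than in papilloma skin, and the bases before a start site of each are shown with RefSeq sequence of build GRCm38.p6. Promoters of 4 of the 10 genes were found in the table used here. In the 250 bases before each start, 5 motifs were searched on both strands, namely TATAAA (the TATA box), CCAAT (the CCAAT box), TGANTCA (the site of AP-1 factors), GGGCGG (the GC box) and CATTCC (the site of TEAD factors), and matches are in capitals. No match overlaps another in the sequences shown.
Postn, chr3:54360857-54361106, plus strand: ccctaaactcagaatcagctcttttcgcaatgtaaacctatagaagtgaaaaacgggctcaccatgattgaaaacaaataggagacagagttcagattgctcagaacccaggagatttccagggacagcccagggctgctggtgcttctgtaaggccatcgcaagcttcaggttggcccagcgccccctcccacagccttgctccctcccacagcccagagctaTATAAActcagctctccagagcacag
Sparc, chr11:55420081-55420330, minus strand: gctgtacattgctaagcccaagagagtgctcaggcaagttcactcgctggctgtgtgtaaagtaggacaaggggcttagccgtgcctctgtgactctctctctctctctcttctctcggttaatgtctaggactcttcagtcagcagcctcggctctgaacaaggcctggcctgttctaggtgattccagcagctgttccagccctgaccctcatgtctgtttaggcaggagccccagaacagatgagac
The Postn sequence holds TATAAA from 26 to 21 bases before the start, a motif found in 12.4% of 32851 promoter windows of this length, and the Sparc sequence holds none of the 5. The CCAAT box was in 33.9% of the windows, the AP-1 site in 6.75%, the GC box in 32.7% and the TEAD site in 12.6%. A second Postn start in the table had no match either.

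The value table and the scanner files disagreed on 2 arrays in a way that reaches these genes. Across 55155 probes, the table column of each array was compared with all scanner files by Spearman's rho. The column of papilloma skin 1 had a rho of 0.588 with its own file and 0.924 with the file of tumor 2, and the column of tumor 1 had 0.827 with its own file and 0.947 with that of tumor 2. The other 7 columns had 0.931 to 0.980 with their own file, although the columns of papilloma 2 and papilloma 3 were each closest to the file of the other. The labels were kept, and the reason for the disagreement was not tested.

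For the members the disagreement was large. With quantile scaling of the scanner files, tumor 1 had the highest signal of all 9 files for 5 of the 14 probes (Dcn, Lum, Pdgfra, Postn and Fn1), whereas its table column was the lowest of the 9 for 6 probes. Dcn, for example, stood at 10.35 in the table and at 13.80 in the scanner file of tumor 1. Fn1 stood at 14.33 in the table and at 7.68 in the scanner file of papilloma skin 1. Papilloma skin 1 was the highest table column for 4 probes and the lowest scanner file for 6. On papilloma skin 1, tumor skin 1 and tumor 1, moreover, 90.7% to 95.04% of non-control probes were well above background, against 44.2% to 64.2% on the other 6 arrays. The calls come from the table, and values without the columns of papilloma skin 1 and tumor 1 or from the scanner files, at 5 ways of scaling them, stand beside the results they bear on. The column of tumor skin 1 was kept in both. Over the 5 scalings, the sign was opposite to that of the table throughout for 5 of the 14 probes in papilloma against its skin, 4 in tumor against its skin and 9 between the skins.

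**Figure D1:**
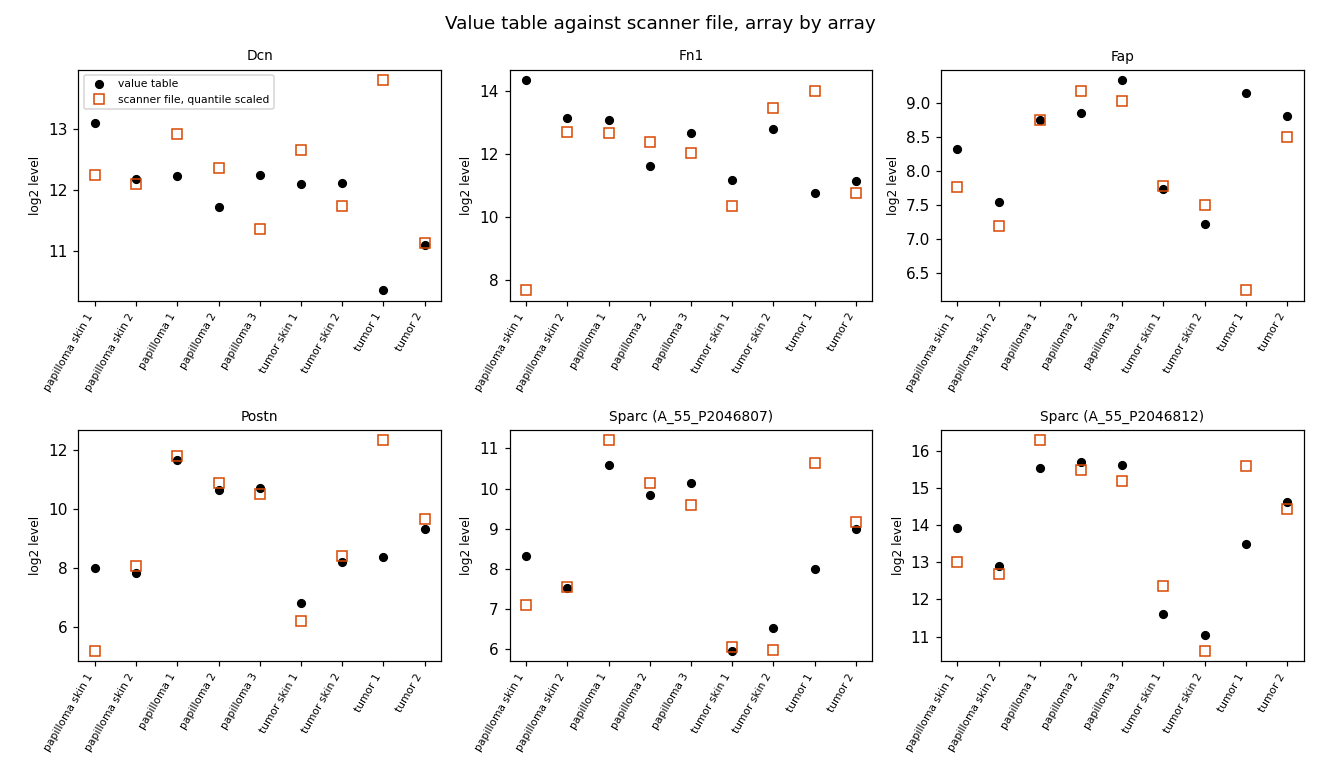
Log2 level (vertical axis) of 6 probes on each of the 9 arrays (horizontal axis), from the value table (filled circles) and from the scanner files after quantile scaling (open squares). The symbols lie far apart for tumor 1, where Dcn is 10.35 in the table and 13.80 in the scanner file, and for papilloma skin 1 in Fn1, at 14.33 and 7.68.

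Of the 14 probes, 9 were well above background on all 9 scanner files, and the 2 Lox probes on only 5 and 4. The mean table level was at least 6 for 11 probes and under 6 for both Lox probes and for Fbln1 A_55_P2088601, which could not be called. A probe was called when its Benjamini-Hochberg adjusted p over all 55681 probes in limma was at most 0.05, its log2 fold change at least 1 in size and its mean level at least 6.

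The first comparison asked which of these transcripts differed between neutrophil preparations of papillomas and of the skin beside them. Of the 14 probes, 3 were called higher (Postn and both Sparc probes) and 0 lower, where 2.18% of all probes were called higher and 1.00% lower. The median log2 fold change of the 14 probes was 0.14, against -0.01 over all probes. Without the columns of papilloma skin 1 and tumor 1, which leaves 1 papilloma skin array, Sparc had log2 fold changes of 2.71 (A_55_P2046812) and 2.67 (A_55_P2046807). Postn was not called in that fit. With scanner files after quantile normalization and ComBat the same 3 probes passed, where 3963 of all 55155 probes were called. The same quantile values without ComBat called 0 of all probes. ComBat kept the groups and the test after it took no account of the slide, so its p-values can be too small.

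Postn, a matricellular protein that binds collagen and integrins and is abundant in remodelling tissue, had the largest difference. Its levels were 11.67, 10.63 and 10.71 in papilloma and 8.00 and 7.83 in papilloma skin. All papilloma arrays lay above both papilloma skin arrays, by more than the spread within either group. The level was 8.52-fold higher in papilloma (log2 3.09, SE 0.48, 95% interval 1.997 to 4.18, limma adjusted p = 0.0084), and the difference within slide 1 was 3.67 and within slide 2 was 2.81. With slide as a term in the model, which leaves 3 residual degrees of freedom, the log2 fold change was 2.98 and the call was lost (adjusted p = 0.0656). Leaving out papilloma skin 1 (log2 3.18) or papilloma skin 2 (log2 3.004) ended the call, in fits that held 1 papilloma skin array. Over 5 ways of scaling the scanner files the log2 fold change was 3.46 to 4.42, with adjusted p from 0.0270 to 0.409.

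Sparc, a collagen-binding matricellular protein, was called higher in both stages, although no Sparc call held with slide as a term. Its probe A_55_P2046812 read 15.55, 15.71 and 15.62 in papilloma and 13.92 and 12.91 in papilloma skin. The papilloma arrays lay close together and above both skin arrays. The fold was 4.62 (log2 2.21, SE 0.39, limma adjusted p = 0.0145), and that of the probe A_55_P2046807 was 4.83 (log2 2.27, SE 0.37, limma adjusted p = 0.0106). Within slides the former differed by 1.62 and 2.79 and the latter by 2.27 and 2.32. With slide as a term they had log2 fold changes of 2.29 and 2.19 (adjusted p = 0.0788 for each). Both calls were lost without papilloma skin 2 (log2 1.70 and 1.88, adjusted p = 0.0954 and 0.0806), and that of A_55_P2046812 without papilloma 3 (log2 2.21, adjusted p = 0.0539). From the scanner files the log2 fold change was 2.76 to 3.96 for A_55_P2046812 and 2.59 to 3.17 for A_55_P2046807.

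Fap, the serine protease, read 8.75, 8.85 and 9.33 in papilloma and 8.32 and 7.54 in papilloma skin. All papilloma arrays were above both skin arrays, but the difference did not pass the test (log2 1.05, 95% interval 0.39 to 1.70, limma adjusted p = 0.0746). Mfap5 went the other way without passing, with 6.98, 6.01 and 6.29 in papilloma against 8.24 and 7.55 in papilloma skin (log2 -1.46, interval -2.51 to -0.41, limma adjusted p = 0.111). The groups of Mfap5 did not overlap either, and within slides the difference was -1.25 and -1.54. Fn1, with 13.08, 11.62 and 12.65 against 14.33 and 13.14, had a log2 fold change of -1.28 with an interval of -2.61 to 0.04. The scanner files also gave a lower level of Mfap5 in papilloma (log2 -1.66 to -0.54 over the 5 scalings) but a higher one of Fn1 (1.80 to 2.28), and papilloma skin 1 is the highest column and the lowest file of Fn1.

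The proteoglycans and the receptor showed no call in papilloma. Dcn was 12.22, 11.72 and 12.24 in papilloma against 13.10 and 12.18 in skin, with overlapping groups and an interval of -1.32 to 0.15, and the scanner files gave 0.042 to 1.14. Lum ranged from 8.76 to 10.27 in papilloma and from 8.91 to 10.25 in skin, and its interval of -1.63 to 1.39 leaves room for a change of over 2-fold either way. The scanner files, where papilloma skin 1 has the lowest Lum level of all (3.55), gave 2.20 to 3.88 without an adjusted p at or under 0.05. Pdgfra ranged from 5.76 to 6.90 in papilloma and from 6.51 to 7.14 in skin, with an interval of -1.26 to 0.44 in the table and a log2 fold change of 0.49 to 1.69 in the scanner files. The 3 Fbln1 probes gave log2 fold changes of -0.04, 0.14 and 0.14, and the 2 Lox probes 0.36 and 0.56, with adjusted p from 0.334 to 0.979.

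**Figure D2:**
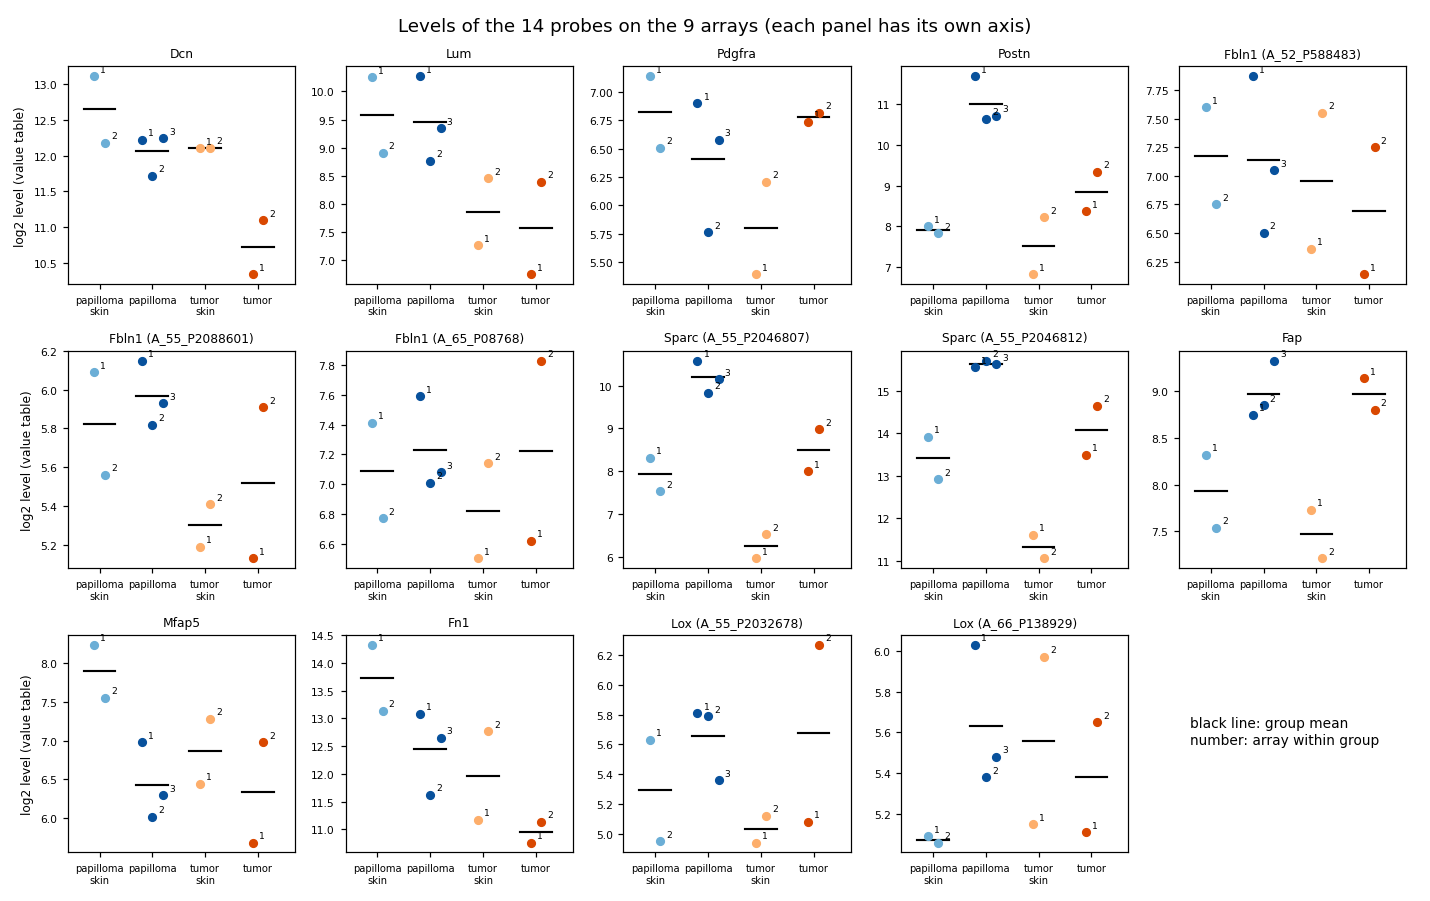
Log2 level of each of the 14 probes (vertical axes, each with its own range) in the value table, by group (horizontal axes). Each point is 1 of the 9 arrays with its number within the group, and black lines are group means. Postn and both Sparc probes are highest on the 3 papilloma arrays, and Dcn is lowest on the 2 tumor arrays.

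The second comparison set tumor against tumor skin. Of the 14 probes, 3 were called higher (both Sparc probes and Fap) and 1 lower (Dcn), of which Fap and Dcn did not keep their direction in the scanner files. In the table, a share of 2.71% of all probes were called higher and 1.51% lower. The median log2 fold change of the members was 0.32, against -0.02 over all probes. Without papilloma skin 1 and tumor 1, which leaves 1 tumor array, Sparc had log2 fold changes of 3.315 (A_55_P2046812) and 2.744 (A_55_P2046807). From the scanner files after quantile normalization and ComBat the 2 Sparc probes were called, where 122 of all 55155 probes were. The limit on p-values after ComBat given for papilloma holds here too, and without ComBat the quantile values called 0 of all probes.

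Sparc A_55_P2046812 read 13.49 and 14.64 in tumor and 11.61 and 11.05 in tumor skin. Both tumor arrays were above both skin arrays. The level was 6.66-fold higher in tumor (log2 2.74, SE 0.42, interval 1.76 to 3.71, limma adjusted p = 0.0087). A_55_P2046807, with 8.00 and 8.98 against 5.96 and 6.52, gave 4.77-fold (log2 2.25, SE 0.41, limma adjusted p = 0.0144). On slide 1, which held 1 array of each group, the differences were 1.87 and 2.04. With slide as a term the log2 fold changes were 2.60 and 2.40 and neither passed (adjusted p = 0.106 and 0.113). The Sparc calls were lost without tumor 2 (log2 2.16 and 1.76, adjusted p = 0.0557 and 0.0969), and that of A_55_P2046807 also without tumor skin 1 (log2 1.97, adjusted p = 0.0603). All 5 scalings of the scanner files gave a higher level in tumor, with log2 fold changes of 3.26 to 3.59 for A_55_P2046812 and 2.50 to 3.90 for A_55_P2046807, and only ComBat gave an adjusted p at or under 0.05 (0.0174 and 0.0278).

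In the table, though with no kept direction in the scanner files, Fap rose 2.84-fold from 7.73 and 7.21 in tumor skin to 9.14 and 8.80 in tumor (log2 1.504, SE 0.31, limma adjusted p = 0.0245). The groups did not overlap. Dcn fell in the table, and in no scaling of the scanner files, from 12.10 and 12.11 in tumor skin to 10.35 and 11.10 in tumor, which is 2.61-fold lower (log2 -1.38, SE 0.35, limma adjusted p = 0.0452). In the scanner files tumor 1 has the lowest Fap and the highest Dcn level of all 9, and the log2 fold change was -0.54 to 0.12 for Fap and 0.04 to 0.42 for Dcn over the 5 scalings. Without the column of tumor 1 the table gave 1.34 for Fap (adjusted p = 0.106) and -1.01 for Dcn (adjusted p = 0.177).

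Both calls also rested on other choices. With slide as a term the log2 fold change was 1.69 for Fap (adjusted p = 0.098) and -1.22 for Dcn (adjusted p = 0.242). That of Fap was lost without tumor 2 (log2 1.67, adjusted p = 0.0913) and without tumor skin 2 (log2 1.25, adjusted p = 0.0900). That of Dcn was lost without tumor 2 (log2 -1.76, adjusted p = 0.0793), without tumor skin 1 (log2 -1.39, adjusted p = 0.119) or tumor skin 2 (log2 -1.38, adjusted p = 0.110), and without papilloma 1, 2 or 3, which left its log2 fold change at -1.38 and moved the adjusted p to 0.0639, 0.0543 and 0.0758.

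Postn read 8.37 and 9.33 in tumor and 6.83 and 8.22 in tumor skin. The groups were next to each other without overlap, and the difference did not pass (log2 1.32, interval 0.13 to 2.52, limma adjusted p = 0.149). The scanner files gave 3.03 to 3.89, with the tumor 1 file at 12.32. Pdgfra, with 6.74 and 6.82 against 5.39 and 6.21, likewise did not overlap and did not pass (log2 0.98, interval 0.05 to 1.91, limma adjusted p = 0.166), with 1.31 to 2.32 in the scanner files. Fn1 was 10.76 and 11.13 in tumor and 11.17 and 12.77 in tumor skin, Lum 6.74 and 8.39 against 7.26 and 8.45, and Mfap5 5.68 and 6.98 against 6.44 and 7.28. Their intervals all held 0 (-2.48 to 0.43, -1.94 to 1.36 and -1.68 to 0.62). The scanner files gave higher levels of Fn1 (0.22 to 0.72) and Lum (1.24 to 1.71) in tumor and a lower one of Mfap5 (-0.83 to -0.009). Fbln1 probes ranged from -0.27 to 0.41 and Lox probes from -0.18 to 0.64 in log2 fold change.

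**Figure D3:**
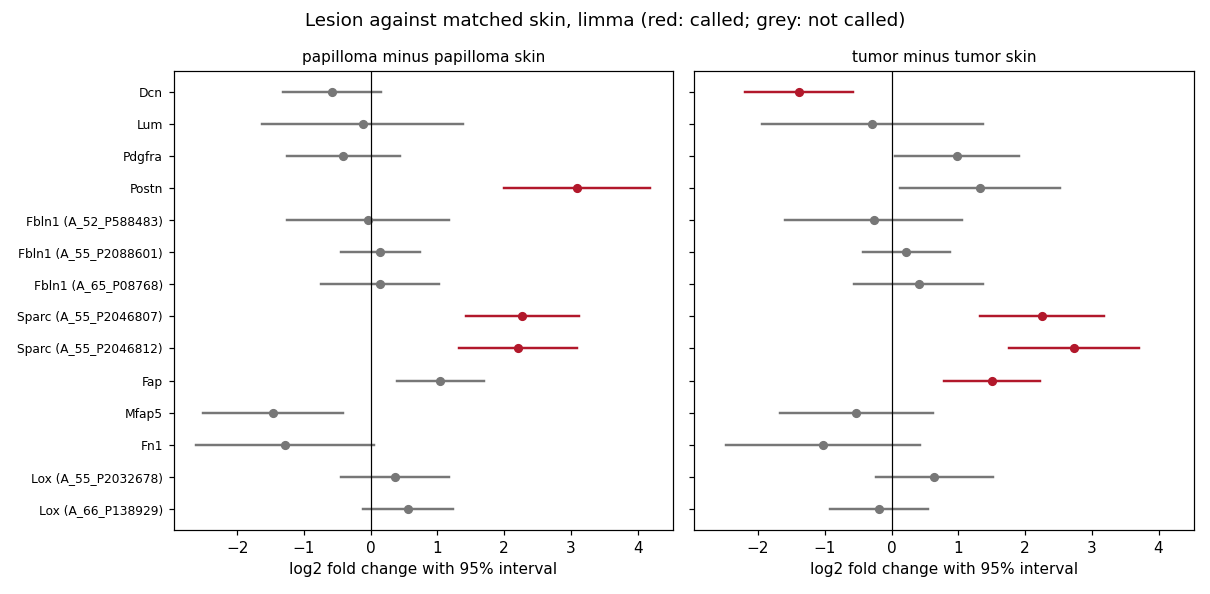
Log2 fold change (horizontal axis) of the 14 probes (vertical axis) for papilloma minus papilloma skin and tumor minus tumor skin, with 95% intervals from limma on the value table. Red probes were called, which were Postn and both Sparc probes in papilloma, and both Sparc probes, Fap and Dcn in tumor. Fap and Dcn in tumor did not keep their direction in the scanner files.

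The stages were then compared with each other. Between tumor and papilloma, 0 of the 14 probes were called, where 0.447% of all probes were called in either direction. Of the 14 probes, 6 had an unadjusted p under 0.05, where 8032 of all 55681 probes did. The 6 were Postn, both Sparc probes, Dcn, Fn1 and Lum, all lower in tumor. The arrays of tumor lay below all arrays of papilloma for each of these, by log2 -2.15 for Postn (interval -3.24 to -1.06), -1.70 and -1.56 for Sparc, -1.34 for Dcn, -1.50 for Fn1 and -1.89 for Lum. Groups of 2 or 3 arrays can separate without any difference, and the share over all probes was not counted. The smallest adjusted p in limma was 0.108, for Sparc A_55_P2046807. In the scanner files both Sparc probes were lower in tumor too (-0.92 to -0.42 and -1.31 to -0.46), whereas the sign varied between scalings for Postn (-0.63 to 0.09), Dcn (-0.34 to 0.48), Fn1 (-0.57 to 0.34) and Lum (-0.08 to 0.42). For Fap the difference in the table was close to 0, with an interval of -0.66 to 0.65. In the scanner files Fap was lower in tumor at all 5 scalings (-1.69 to -1.07), without an adjusted p at or under 0.05.

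Between tumor skin and papilloma skin, 0 of 14 were called as well (0.260% of all probes). An unadjusted p under 0.05 in limma was found for 5 of the 14, where 12656 of all 55681 probes had one. Levels in the value table were lower in tumor skin for 13 of the 14, and the share of all probes that were lower was not counted. The median log2 fold change of the 14 was -0.53, against -0.008 over all probes. In the scanner files 10 of the 14 were higher in tumor skin at all 5 scalings and 3 lower. Sparc A_55_P2046812 came closest, at 11.61 and 11.05 against 13.92 and 12.91 (log2 -2.09, interval -3.06 to -1.11, limma adjusted p = 0.0629). The other 4 with an unadjusted p under 0.05 were Sparc A_55_P2046807 (log2 -1.69), Fn1 (-1.76), Lum (-1.72) and Pdgfra (-1.02). Both tumor skin arrays lay below both papilloma skin arrays, a separation whose share over all probes was not counted either. On slide 1, the one slide with both kinds of skin, these 5 differences ran from -3.16 to -1.74. Of these, the Sparc probes were lower in tumor skin in the scanner files too (-1.36 to -0.64 and -1.37 to -0.61), while Fn1 (1.398 to 1.72), Lum (0.92 to 2.73) and Pdgfra (0.24 to 1.06) were higher there.

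Whether the lesion effect differed between the stages was tested as an interaction, which shares its arrays with the comparisons above. None of the 14 probes was called (0.0269% of all probes). In limma 2 of the 14 had an unadjusted p under 0.05, as did 8174 of all 55681 probes, a similar share. The effect on Postn was lower in tumor by log2 -1.77 (interval -3.39 to -0.14, adjusted p = 0.306), and that on Pdgfra was higher by 1.39 (interval 0.13 to 2.64, adjusted p = 0.301). For the Sparc probes the difference was -0.02 and 0.53, with intervals of -1.28 to 1.24 and -0.79 to 1.85. The scanner files gave -1.08 to -0.38 for Postn and 0.40 to 1.14 for Pdgfra over the 5 scalings. For 3 of the 14 probes the sign was opposite to that of the table throughout. Fap was 1 of them, with 0.46 in the table and -2.12 to -1.19 in the scanner files.

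Other genes of the same matrix families were counted on 1 probe each, that with the highest mean level. Of 75 genes in 8 lists, 15 were called higher and 6 lower in papilloma than in papilloma skin, and their median log2 fold change was 0.45. Of all probes, 2.18% were called higher and 1.00% lower there. In tumor against tumor skin 8 were higher and 5 lower, with a median of 0.15, where 2.71% of all probes were higher and 1.51% lower. Without the columns of papilloma skin 1 and tumor 1, 13 genes in papilloma and 10 in tumor were called. Between tumor and papilloma 8 of the 75 were lower and 0 higher, where 0.447% of all probes were called in either direction. Without those columns no probe of the whole array was called in that comparison, so the loss of these calls is not particular to the lists. Of all calls on genes of the matrix and cell type lists, the sign turned in at least 1 scaling of the scanner files for 1 of 50 in papilloma, 0 of 31 in tumor, 1 of 20 between the lesions and 2 of 3 between the skins, and these are named below. Without the columns of papilloma skin 1 and tumor 1, fewer of these calls held, in a fit that leaves 1 papilloma skin array and 1 tumor array. Between the lesions and between the skins that fit called no probe of the whole array.

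Among 19 matricellular and adhesive genes, the family of Sparc and Postn, 4 rose and 2 fell in papilloma. Sparcl1, the closest relative of Sparc, rose by log2 4.05 (SE 0.32, limma adjusted p = 0.000496) in papilloma and 3.69 (SE 0.35, adjusted p = 0.00163) in tumor. Spp1, osteopontin, rose by 2.87 and 2.69, and Ctgf, a matricellular growth factor binder, by 2.39 and 1.09. Wisp1, of the same family as Ctgf, rose by 2.55 in papilloma and had 1.05 in tumor (adjusted p = 0.0769). Nov fell by 1.94 and 1.49, and Thbs1, thrombospondin-1, fell by 1.18 in papilloma in the table but was higher by 0.58 to 0.88 in the scanner files. The calls of Nov in both comparisons and of Thbs1 were lost without the 2 columns. Tgfbi, at a mean level of 15.57, had -0.39 and -0.46 and passed in neither.

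Of 9 other small leucine-rich proteoglycans, Fmod (log2 1.12) and Aspn (1.14) rose and Ogn (-2.04) fell in papilloma, and none was called in tumor against its skin. From the scanner files the log2 fold change was 0.094 to 0.42 for Fmod and 1.13 to 3.65 for Aspn. The call of Ogn was lost without the 2 columns, and from the scanner files with ComBat 0 genes of the list were called. Bgn had 0.46 (limma adjusted p = 0.149) and -0.01, and Podn 0.25 and -0.36. Fmod and Aspn were also lower in tumor than in papilloma (-1.21 and -1.15). Of 14 elastic fibre and microfibril genes, the company of Fbln1 and Mfap5, Fbn1 (1.41), Ltbp4 (1.15) and Efemp2 (1.28) rose and Efemp1 (-1.09) fell in papilloma, and 0 were called in tumor against its skin, although Fbn1 and Ltbp4 were lower in tumor than in papilloma (-1.67 and -1.70, the former -0.52 to 0.07 in the scanner files). Without the 2 columns Ltbp4, Efemp2 and Efemp1 were no longer called in papilloma. Ltbp3 and Mfap4 had 0.49 and -0.99 in papilloma and passed in neither comparison.

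Of the 4 other lysyl oxidases, which cross-link the same substrates as Lox, Loxl2 rose in papilloma (2.41, SE 0.29, limma adjusted p = 0.00317) and Loxl1 in tumor (1.02, adjusted p = 0.0157), while Loxl3 passed in neither (0.50 and -0.08). Neither the Loxl2 nor the Loxl1 call held without the 2 columns. Of 5 PDGF ligands and receptors beside Pdgfra, the receptor Pdgfrb, typical of pericytes, rose by 3.23 (SE 0.16, adjusted p = 0.000114) in papilloma and 1.68 (adjusted p = 0.00207) in tumor, and was lower in tumor than in papilloma by -1.99. The ligand Pdgfa rose by 2.05 in papilloma, and Pdgfb had 1.42 (adjusted p = 0.167). Of the 4 proteases and receptors next to Fap, Plau, the urokinase activator of plasminogen, rose in papilloma (1.76) and tumor (1.43), whereas its receptor Plaur, at a mean level of 15.77, and Prep passed in neither (0.67 and 0.32, and -0.28 and 0.33).

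Of 6 subunits of integrins that bind fibronectin, 0 were called in papilloma, whereas in tumor Itgb1 rose (1.19, SE 0.17, limma adjusted p = 0.00734) and Itgb3 (-1.64) and Itga4 (-1.63) fell. Leukocytes use Itga4 and platelets use Itgb3, and Itgb3 was also lower in tumor than in papilloma (-1.79). Of 15 mesenchymal identity genes, the transcription factors Prrx1 (1.19) and Twist1 (1.21) rose and Pi16 (-1.61) and Clec3b (-1.06) fell in papilloma, while in tumor Twist2 (1.70) rose and Vim (-1.29) and Pi16 (-1.34) fell. Gsn and Vim, at mean levels of 14.96 and 14.27, are also expressed by leukocytes. Prrx1, Twist1 and Clec3b in papilloma and Twist2 in tumor were not called without the 2 columns. Serpinf1 was lower in tumor than in papilloma (-2.80). Between the skins 2 of the 75 genes were called, Thbs1 (-1.58) and Dpt (-1.64), both lower in tumor skin in the table, with Thbs1 higher there in the scanner files (0.14 to 0.58).

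Markers of other cells moved alongside, and their part in the results on the members was not tested. The neutrophil genes S100a9 and S100a8 had mean levels of 18.56 and 18.08, and the summed level of the neutrophil list on the log2 scale ranged from 20.09 to 20.10 in papilloma skin, 19.72 to 19.74 in papilloma, 20.24 to 20.31 in tumor skin and 19.87 to 19.93 in tumor. Of the 12, 4 fell in papilloma (Ltf, Camp, Ngp and Mmp8) and 5 in tumor (the same and Ly6g). The summed level of the 10 members was 14.49 to 15.55, 15.96 to 16.07, 13.40 to 13.88 and 13.98 to 15.00 in the same order of groups. Sparc A_55_P2046812 made up 69.8% to 83.7% of that sum in papilloma and 32.4% to 33.4% in papilloma skin, and per gene the median log2 fold change in papilloma was 0.008, with 5 of the 10 genes above 0. In a bulk sample, more cells of a type and more RNA per cell cannot be told apart.

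Among 8 collagen chains, the companions of the members in stroma, Col6a1, Col6a2, Col5a1 and Col5a2 rose in papilloma by 2.03 to 2.88, and Col6a1 (1.01) and Col5a1 (1.11) in tumor. The Col6a1 and Col5a1 calls in tumor were lost without the 2 columns, where 2 other chains were called higher and 1 lower, and with ComBat 0 of the 8 chains were called there, while over the 5 scalings of the scanner files the log2 fold change was 1.97 to 2.33 for Col6a1 and 2.18 to 3.23 for Col5a1. Col1a2, Col6a3 and Col1a1 had 1.77, 1.399 and 1.88 in papilloma with adjusted p in limma from 0.102 to 0.176. The summed collagen level was 13.72 to 14.17 in papilloma skin, 15.46 to 15.77 in papilloma, 12.92 to 12.95 in tumor skin and 12.93 to 13.80 in tumor. It was thus highest on the papilloma arrays, as were Postn and Sparc, while Dcn, Fn1 and Mfap5 were not.

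Of 10 smooth muscle and pericyte genes, 9 rose in papilloma, among them Acta2 (1.30) and Tagln (1.75), and 2, Notch3 (1.52) and Rgs5 (2.21), rose in tumor. Their summed level was 11.94 to 12.24 in papilloma skin, 14.002 to 14.16 in papilloma, 12.12 to 12.29 in tumor skin and 11.94 to 12.07 in tumor. Of 9 endothelial genes, 6 rose in papilloma and 2, Esam (1.52) and Cdh5 (2.39), in tumor. Kdr and Vwf passed in neither, and the summed level was 12.89 to 13.13, 13.06 to 13.79, 13.21 to 14.05 and 12.58 to 12.80. Per gene the median log2 fold change was 1.615 in papilloma and 0.89 in tumor, with 8 of the 9 genes above 0 in each. Without papilloma skin 1 and tumor 1, 9 of the 10 and 3 of the 9 were still called higher in papilloma, and Rgs5 and Esam were not called in tumor.

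Of 14 keratinocyte genes, 5 rose in papilloma (Krt6a, Krt6b, Krt16, Sprr1b and Sprr2d) and 6 in tumor (the same and Krt14). In the table Krt5 and Trp63 passed in neither. From the scanner files with ComBat, 8 of the 14 genes were called higher in papilloma and 0 in tumor. Their summed level was 13.56 to 14.01 in papilloma skin, 14.56 to 15.69 in papilloma, 13.43 to 14.33 in tumor skin and 15.18 to 16.66 in tumor, so that its range in tumor reached above that in papilloma. Of 10 monocyte and macrophage genes found, 1, Emr1, was called, lower in both lesions (-3.09 and -2.04) and in tumor skin against papilloma skin (-1.12, but 0.74 to 0.91 in the scanner files). From the scanner files with ComBat, 4 of the 10 were called higher in papilloma and 0 lower. Csf1r and Cd68 passed in none, and the list's summed level was 15.80 to 15.96, 15.43 to 15.60, 15.52 to 15.63 and 15.33 to 15.51. No defining marker was at 0, which an array cannot show.

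**Figure D4:**
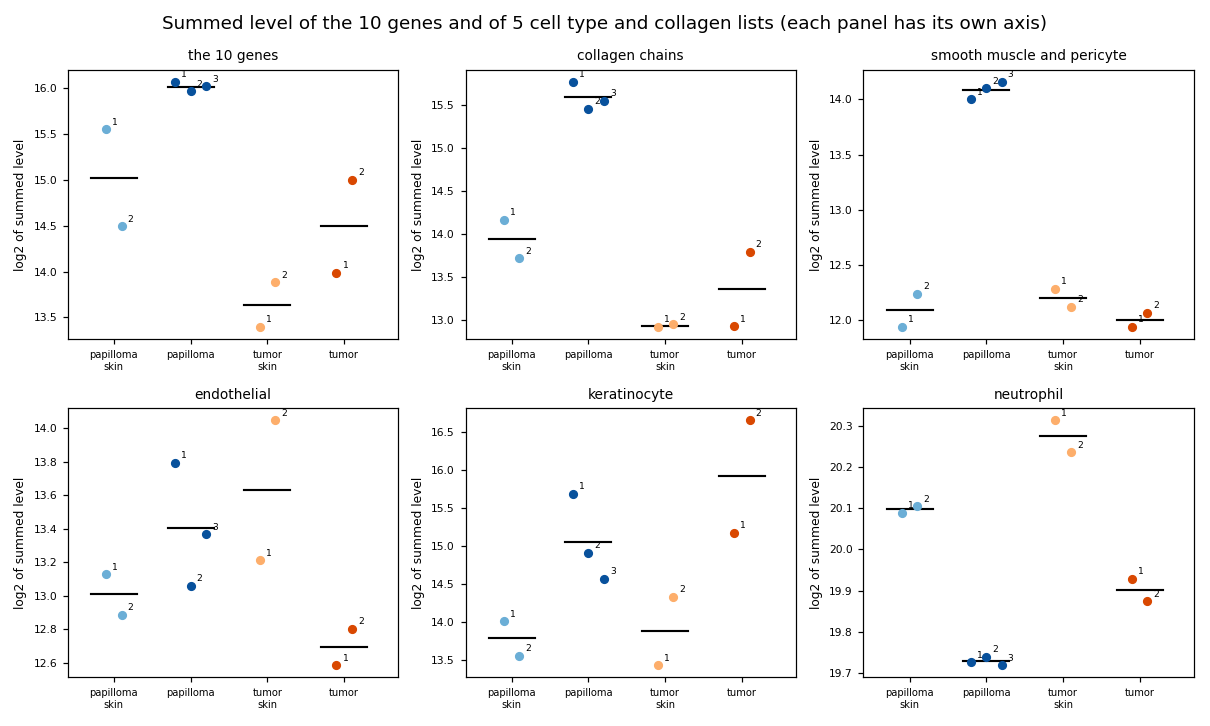
Log2 of the summed level over all probes (vertical axes, each with its own range) of the 10 genes, 8 collagen chains and 4 lists of cell type markers, by group (horizontal axes). Points are the 9 arrays with their number within the group and black lines are group means. The members' sum, most of which is Sparc on these arrays, the collagens and the smooth muscle and pericyte genes are highest on the 3 papilloma arrays, at 15.96 to 16.07, 15.46 to 15.77 and 14.002 to 14.16, and the neutrophil genes are lowest there, at 19.72 to 19.74.

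The profile of the members was last compared with those of all other genes over the 9 arrays, as a description without a test, since arrays of 1 group share their tissue and some share a slide. The mean of the members' centred levels was highest on papilloma 1 (0.92), papilloma skin 1 (0.60) and papilloma 3 (0.53) and lowest on tumor skin 1 (-1.01), tumor 1 (-0.72) and tumor skin 2 (-0.35). The 10 probes most like it had Pearson's r of 0.985 to 0.990. The profile differed between the sources on the 2 disputed columns. From the scanner files after quantile scaling the mean was -1.89 on papilloma skin 1, the lowest, and 1.24 on tumor 1. In the table, 3 of the 10 names were among the 10 most alike over the other 7 columns. They included Kif13a, a kinesin, Tsc22d1, a TGF-beta responsive transcription regulator, Sash1, Slc39a14, a zinc and iron transporter, Cenpt and Sfxn1, and none was of the lists above. For Sparc alone, looked at after its values were seen, the 10 most alike had r of 0.987 to 0.995. They were Mmrn2, Cdh5, 2610034B18Rik, Fam92a, Nid1, Pxdn, Wwtr1, Egfl7, Gas5 and Fam59a. Of these, Cdh5, Mmrn2 and Egfl7 are known from endothelium and Nid1 from basement membranes. The endothelial list as a whole summed to 13.21 to 14.05 in tumor skin, where both Sparc probes were lowest. A sum is set mostly by the probes of highest level. Per gene, 8 of the 9 endothelial genes were higher in tumor than in tumor skin, with a median log2 fold change of 0.89. Which cells the Sparc signal came from was not tested. The Sparc ranking included the 2 disputed columns.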

How the data were processed

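Gene expression was measured on 9 one-color Agilent mouse arrays (Cy3) of sorted neutrophils on 3 slides. The authors deposited scanner output with fluorescence intensity per spot, background-subtracted by Feature Extraction 10.7.3.1 with mm9 annotation per the file headers, and a table of 55681 log2 values per array. Quantile normalization and a ComBat correction for the chip are named in the methods, but whether the deposited table holds them is not stated. The number of arrays limits the precision.

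The table was tested in limma 3.58.1 (R 4.3.3) with the 4 groups in 1 fit, all 9 columns and 5 residual degrees of freedom. As alternatives, processed signals were log2 transformed, averaged per probe (55155 probes) and scaled to the 75th percentile or by quantiles, also with slide in the model or with a ComBat written for this purpose, or corrected by normexp with an offset of 50. The slide, the replicate number, the filters, gene means and the left-out arrays were varied in the table. The limma step was tested on simulated data of 55681 probes with independent noise, no slide effect and no mismatched column. There, 200 probes with a mean level above the minimum for a call were shifted by 2 on the log2 scale. Of these, 72.5% were recovered for papilloma versus papilloma skin and 65.5% for tumor versus tumor skin. ComBat was tested apart on simulated slide shifts, and these rates do not cover calls made after it. Tables and plots were made with pandas 2.3.3, matplotlib 3.10.9 and numpy 2.4.6 in Python 3.11.15. Named are all member probes, in matrix and collagen lists the 3 genes of highest mean level and genes of counts up to 5, in other cell type lists the 2 of highest mean level, and the 10 genes most like the members' mean profile. The members and lists were chosen with earlier results of these data known.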

Additional observations from a re-analysis of the deposited data

How the results depend on the processing

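Over 14 alternatives and the omission of each of the 9 arrays, the comparisons of tumor with papilloma, of the skins and of the lesion effects had 0 member probes called throughout. The 4 scanner settings without ComBat called 0 of all probes in every comparison, and slide as a term called 0 of all in these 3. Against the matched skin, slide as a term called 981 of all 55681 probes in papilloma and 209 in tumor, and the replicate block 552 and 737. A 0 in these settings is thus not particular to the members. For papilloma versus papilloma skin, 3 probes were called in the value table and 0 with slide as a term, with the replicate block, and from the scanner files by 75th percentile, quantile, quantile with slide as a term, and normexp. Leaving out 1 array gave 0 (without papilloma skin 2) to 3. For tumor versus tumor skin, 4 were called in the table, 2 without the columns of papilloma skin 1 and tumor 1, 2 from the scanner files with ComBat, and 0 with slide as a term, with the replicate block, and in the other 4 scanner settings. Leaving out 1 array gave 0 (without tumor 2) to 4. The replicate numbers were not taken as pairs, since deviations of same-numbered arrays from their group means correlated from -0.957 to 0.376.

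The log2 fold change of Dcn in tumor versus tumor skin reversed from -1.38 to 0.043 (75th percentile), 0.42 (normexp), 0.27 (quantile), 0.11 (ComBat) and 0.079 (quantile with slide as a term), and that of Fap from 1.504 to -0.06 (normexp), -0.27 (quantile), -0.49 (ComBat) and -0.54 (quantile with slide as a term). The cause was not tested. No other called value of the members changed sign.

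List counts without those 2 columns or with ComBat, and the members' mean profile from the scanner files or over 7 columns, were added after seeing the data. Matrix list genes called in papilloma versus papilloma skin went from 21 to 13 without the columns, and in tumor versus tumor skin from 13 to 2 with ComBat. Cell type markers in the latter went from 18 to 5 with ComBat, where 122 of all 55155 probes were called against 2346 of 55681 in the table. In tumor versus papilloma (8 matrix genes, 12 markers) and between the skins (2 and 1), both settings called no probe of the whole array.

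With slide in the model 3 residual degrees of freedom remain, and groups of 2 pooled samples leave wide intervals.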
